A study of Mus musculus with 8 samples.

Results

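A set of 43 genes for making ribosomes was followed in mouse embryonic fibroblasts (MEFs) upon glucose starvation. The genes were taken by symbol from a list of names, drawn up with earlier results of these data known, and comprised the core proteins of the small nucleolar ribonucleoproteins (snoRNPs), assembly factors of the 40S and 60S subunits, and subunits and partners of RNA polymerase I. All 43 had a row among the 49492 of the deposited table, and all 43 were among the 16232 genes that passed the filter on low values.

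The study compared MEFs that express wild-type Pontin (WT) with MEFs that express Pontin carrying R333A and R339A (RA), each in normal medium or upon glucose starvation, to ask which genes depend on arginine methylation of Pontin. In all 4 groups the MEFs were Pontin f/f cells immortalized by serial passage, the endogenous gene had been removed with a Cre virus, and a 3×Flag-tagged form of Pontin had been added back stably with a lentivirus. WT and RA are therefore 2 stable lines, so the form of Pontin and the line that carries it cannot be told apart. The starved cells were kept in medium without glucose that contained dialyzed serum, and the length of starvation for these libraries is not given in the sources used here. Each group had 2 replicates, and no label says that they came from separate cultures. The study states in general that its experiments were repeated independently, without tying this to these libraries, so p-values measure only the spread between these samples, which may be technical. The table's columns are named minus and plus, read here as normal medium and starvation after the way the study marks its conditions.

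Ribosomes are built in the nucleolus. RNA polymerase I transcribes the ribosomal DNA into a long precursor RNA, snoRNPs modify and help fold it, the processome cuts out the future 18S rRNA, and separate factors assemble the 40S and 60S subunits. The work takes much of the energy of a growing cell, and the supply of nutrients is known to set its rate. The libraries were polyA-selected, so they report the messenger RNAs of the assembly proteins and not the rRNA itself.

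Reads recovered per library ran from 43205841 to 56363034. Values are CPM, that is, reads relative to a library size scaled by the authors, unstarved means kept in normal medium, and each fold change is on the log2(CPM + 1) scale. Of the 10 fibroblast markers, 9 passed a level of 1 CPM in 2 libraries, and their sum moved with the groups. It was 10007 and 10087 CPM in unstarved WT, 5313 and 5406 in starved WT, 9918 and 10246 in unstarved RA, and 7042 and 7059 in starved RA. The markers did not all move alike. The collagen gene Col1a1 had 1678 and 1697 CPM in unstarved WT, 211 and 198 in starved WT, 1555 and 1585 in unstarved RA, and 637 and 642 in starved RA. Fn1 had 2390 and 2324 CPM in unstarved WT, 2493 and 2332 in starved WT, 2375 and 2366 in unstarved RA, and 3161 and 3185 in starved RA. Dcn rose in RA, from 13.3 and 13.8 CPM unstarved to 35.9 and 33.9 starved. The part of these shifts in the results below was not tested. Markers of other cell types were near 0: the 5 epithelial markers summed to 0.368 to 1.72 CPM, the 5 endothelial to 2.05 to 9.43 (highest in starved WT), the 5 blood to 0.23 to 0.822 and the 5 pluripotent to 0.0826 to 0.348. In bulk samples, fewer cells of a type and less RNA per cell cannot be told apart. Ruvbl1, which encodes Pontin, had 28.4 and 27.6 CPM in unstarved WT, 27.9 and 28.4 in starved WT, 36.8 and 32 in unstarved RA, and 45.1 and 42.9 in starved RA. It was higher in RA in both media, with a log2 difference of 0.29 before starvation (SE 0.065, limma BH-adjusted p = 0.00946) and 0.62 after it (SE 0.065, limma BH-adjusted p = 2.94e-07). The first of these calls was lost without any 1 of 3 libraries (adjusted p up to 0.0838). The table has 1 row for this gene, so the added copy cannot be told apart from the endogenous one.

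Upon glucose starvation, WT and RA MEFs differed in much of this gene set. In WT, 27 of the 43 genes rose and 10 fell, led upward by the processome gene Utp14a, at 2.4-fold, and downward by the 40S factor Bysl, at 0.547-fold. In RA, 13 rose and 19 fell. The change in RA was below that in WT for 33 genes and above it for 1, Bysl. In normal medium the lines were close, with 4 genes higher in RA and 0 lower.

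These counts come from limma at a BH-adjusted p under 0.05, and stand against calls across all genes as follows. In WT, 39.3% of all tested genes were called higher and 39.2% lower. In RA it was 35% and 33.7%, so that 13 of 43 higher is not above the background. For RA against WT in normal medium it was 6.68% higher and 2.95% lower, so that 4 of 43 is near the background, and under starvation it was 30.8% and 32.1%. For the interaction, which is the response to starvation in RA less that in WT, it was 24.5% higher and 26.1% lower. The median log2 change of the 43 genes was 0.27 in WT and -0.06 in RA, beside 0.0049 and 0.013 over all genes. The median of RA against WT was 0.08 in normal medium and -0.19 under starvation, beside 0.01 and -0.01 over all genes, and the median interaction was -0.25 beside -0.01.

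**Figure D1:**
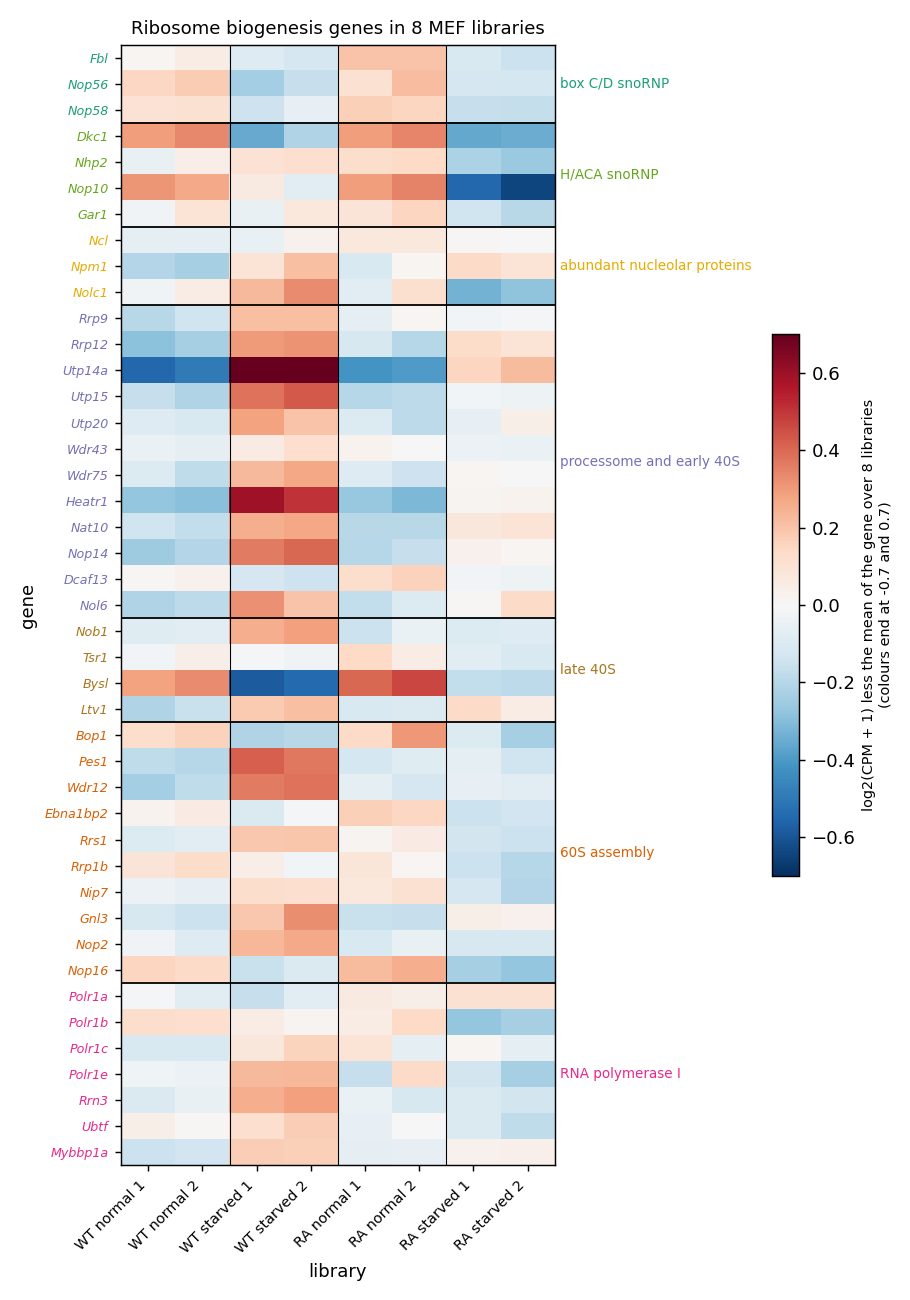
Each of the 43 genes (rows, by role) in each of the 8 libraries (columns), as log2(CPM + 1) less the gene's mean over the 8 libraries; red is above and blue below that mean, and colors end at -0.7 and 0.7. All processome genes but Dcaf13 are reddest in starved WT, and Nop10 is bluest in starved RA.

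By group means, 26 genes stood highest in starved WT, 14 in RA in normal medium, 2 in WT in normal medium (Rrp1b and Polr1b) and 1 in starved RA (Polr1a). These ranks were not counted over all genes. Of the genes that rose in WT, 13 also rose in RA, 9 were not called there and 5 fell. Those 5 were Nhp2, Nolc1, Rrs1, Nip7 and Ubtf. For Nhp2 and Ubtf the call in WT was lost with edgeR and with scaling to total reads. Among all tested genes, 285 (1.76%) rose in WT and fell in RA, and 4406 (27.1%) rose in both lines. Of all tested genes, 6369 fell in WT, and 4438 (27.3% of those tested) fell in both lines. A fall in both lines was thus common and not particular to this set. All 10 genes of the set that fell in WT also fell in RA. They were Fbl, Nop56, Nop58, Dkc1, Nop10, Dcaf13, Bysl, Bop1, Ebna1bp2 and Nop16. A further 4 genes fell in RA alone among the calls (Gar1, Tsr1, Rrp1b and Polr1b), and for all of these but Rrp1b the interaction was called as well.

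Summed over the 43 genes, the level was 7102 and 7115 CPM in unstarved WT, 7966 and 8282 in starved WT, 7458 and 7675 in unstarved RA, and 7437 and 7360 in starved RA. Starved WT stood above the other 3 groups, of which unstarved WT was the lowest. Ncl and Npm1 made up 36.7% to 41.2% of this sum. Without them it was 4464 and 4505 CPM in unstarved WT, 5006 and 5101 in starved WT, 4595 and 4688 in unstarved RA, and 4376 and 4346 in starved RA, which was then the lowest group.

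The box C/D snoRNP genes fell upon starvation in both lines. Fibrillarin (Fbl) is the methyltransferase of this particle, which places 2′-O-methyl marks on rRNA, and Nop56 and Nop58 hold it on the guide RNA. Nop56 had 331 and 339 CPM in unstarved WT, 254 and 267 in starved WT, 323 and 348 in unstarved RA, and 276 and 275 in starved RA. Starved libraries lay below those in normal medium in each line, and the change was -0.36 in WT (SE 0.042, limma BH-adjusted p = 4.94e-07) and -0.28 in RA (SE 0.042, limma BH-adjusted p = 1.43e-05). Its interaction, 0.08, was not called.

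Nop58 had 193 and 194 CPM in unstarved WT, 163 and 173 in starved WT, 202 and 199.8 in unstarved RA, and 161 and 160.3 in starved RA, and fell by 0.20 in WT and by 0.32 in RA on the log2 scale. Fbl had 119 and 122 CPM in unstarved WT, 110.5 and 108 in starved WT, 135 and 135 in unstarved RA, and 109 and 106 in starved RA. It started higher in RA and ended at overlapping levels upon starvation. Its fall was 0.14 in WT and 0.33 in RA, and the interaction was -0.19 (SE 0.055, limma BH-adjusted p = 0.00833). That call was lost with quantile normalization and with scaling to total reads. Near-identical copies lie in 2 other annotated genes for Fbl (longest match 984 bases of a transcript of 1197) and in 3 for Nop56 (760 bases of 1877), and how the authors counted such reads is not stated.

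The H/ACA snoRNP, which turns uridine into pseudouridine, showed its largest difference between lines in Nop10, the core gene with the lowest level. Nop10 had 39.8 and 38.5 CPM in unstarved WT, 33.4 and 30.1 in starved WT, 39.4 and 41 in unstarved RA, and 21.6 and 20.1 in starved RA. The lines overlapped in normal medium and separated upon starvation, when RA stood at 0.666-fold of WT (log2 -0.59, SE 0.063, limma BH-adjusted p = 4.32e-07). The interaction was -0.62 (SE 0.089, limma BH-adjusted p = 2.19e-05).

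Dkc1, the pseudouridine synthase, fell alike by value in both lines. It had 112 and 115 CPM in unstarved WT, 71 and 78.4 in starved WT, 111 and 116 in unstarved RA, and 70.8 and 71.3 in starved RA. Its changes were -0.60 in WT and -0.67 in RA, and the interaction of -0.07 (SE 0.067) was not called. Nhp2, another core protein, had 76.9 and 82.5 CPM in unstarved WT, 85.6 and 86.7 in starved WT, 86.9 and 88 in unstarved RA, and 68.2 and 66.5 in starved RA. It was higher by 0.11 in WT (limma BH-adjusted p = 0.03), a call lost with edgeR, with DESeq2 and without any 1 of 3 libraries (adjusted p up to 0.312), and it fell by 0.37 in RA, with an interaction of -0.48.

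Gar1, the remaining core protein, was not called in WT (log2 -0.02) and fell by 0.29 in RA. Its interaction of -0.26 was lost without WT normal replicate 1 or WT starved replicate 2 (adjusted p up to 0.0632), and its difference between the lines under starvation, -0.18, without WT starved replicate 2 or RA starved replicate 2 (adjusted p up to 0.135). In all, 3 of the 4 H/ACA genes had a called interaction, all lower in RA.

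**Figure D2:**
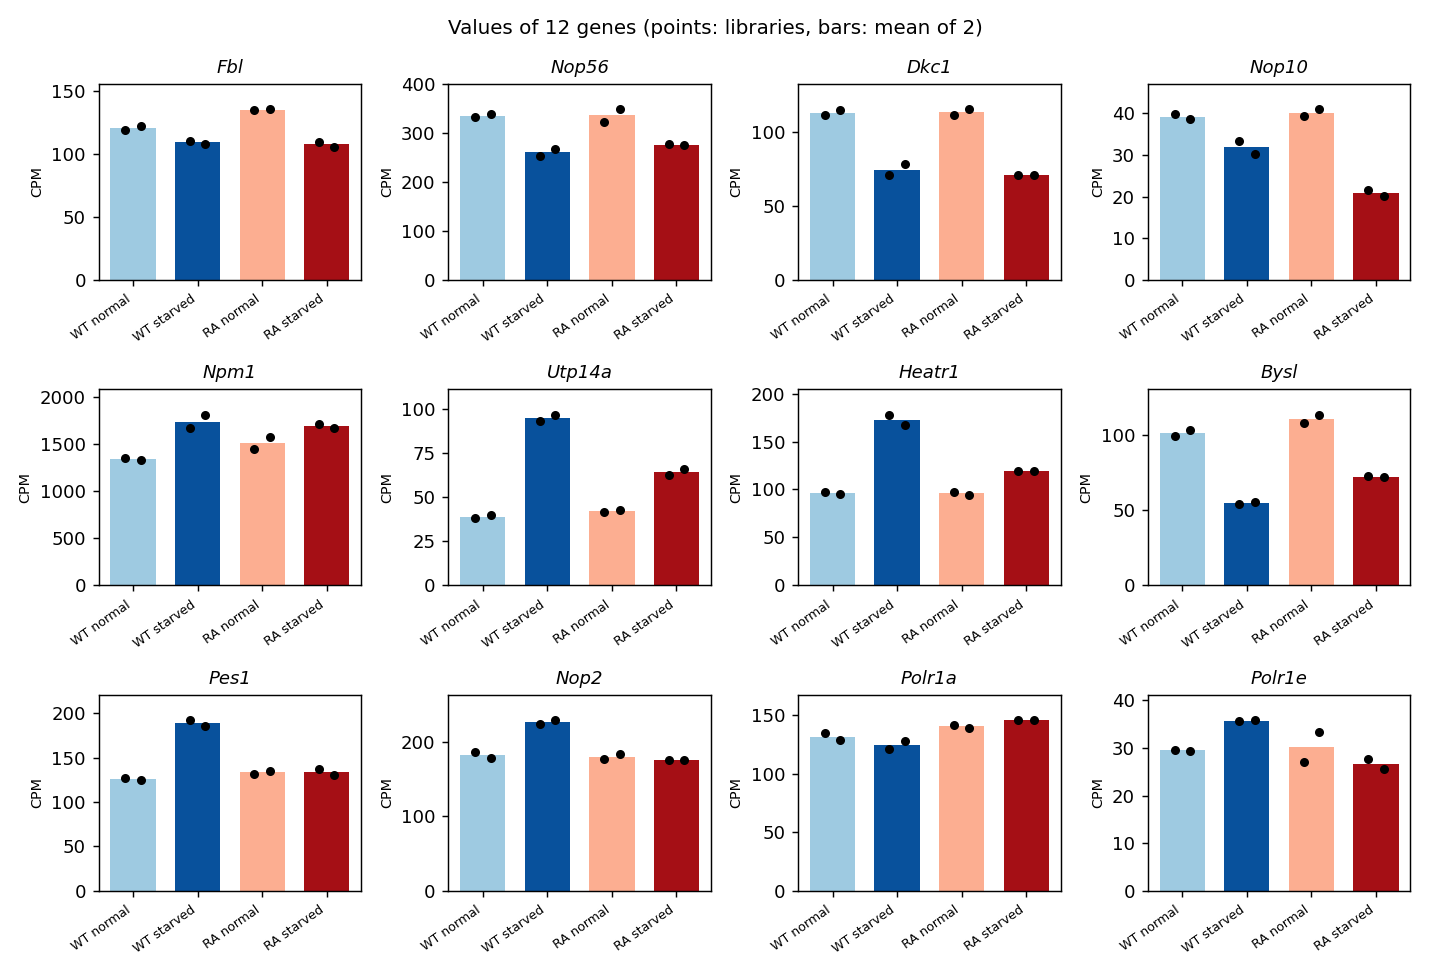
Values of 12 genes in CPM (vertical axis, from 0) in the 4 groups; points are the 2 libraries of a group and bars their mean. Utp14a and Heatr1 are highest in starved WT, Bysl is lowest there, and Nop10 is lowest in starved RA.

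Nucleolin (Ncl) and nucleophosmin (Npm1) are the most abundant proteins of the nucleolus, and Nolc1 is a scaffold that binds snoRNPs and RNA polymerase I. Npm1 had the highest level of the set, with 1355 and 1332 CPM in unstarved WT, 1669 and 1813 in starved WT, 1452 and 1578 in unstarved RA, and 1714 and 1673 in starved RA. It rose by 0.37 in WT (SE 0.051, limma BH-adjusted p = 3.37e-06) and by 0.16 in RA (SE 0.051, limma BH-adjusted p = 0.00926). Its interaction of -0.21 was lost without any 1 of 5 libraries (adjusted p up to 0.0939), its rise in RA without RA normal replicate 1 or RA starved replicate 1 (adjusted p up to 0.0896). Near-identical copies of its transcript lie in 4 other annotated genes, with a longest match of 876 bases.

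Ncl had 1283 and 1278 CPM in unstarved WT, 1291 and 1368 in starved WT, 1412 and 1409 in unstarved RA, and 1347 and 1341 in starved RA. No change by starvation was called in either line (log2 0.05 in WT and -0.07 in RA). Nolc1 moved in opposite directions. It had 236 and 249.6 CPM in unstarved WT, 281 and 303 in starved WT, 227 and 259.9 in unstarved RA, and 192 and 198 in starved RA. The lines overlapped in normal medium and stood apart upon starvation, at 0.667-fold in RA. It rose by 0.27 in WT (SE 0.054, limma BH-adjusted p = 0.000263) and fell by 0.32 in RA (SE 0.054, limma BH-adjusted p = 5.62e-05), and the interaction was -0.59 (SE 0.077, limma BH-adjusted p = 8.4e-06).

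The processome genes had the highest median change of the role groups in both lines. This particle folds and cleaves the precursor around the 18S rRNA. Of its 12 genes here, 11 rose in WT and 1 fell, 9 rose in RA and 1 fell, and the interaction was called lower for 10. Under starvation 11 of the 12 were lower in RA than in WT. Of those differences, that of Nol6 (-0.19) was lost without WT starved replicate 1 or RA starved replicate 1 (adjusted p up to 0.106) and that of Wdr43 (-0.13) without WT starved replicate 2 (0.0538). The group had a median of 0.44 in WT and 0.18 in RA.

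Utp14a, which activates the helicase that takes the particle apart, had 38.2 and 39.8 CPM in unstarved WT, 93.4 and 97 in starved WT, 41.9 and 42.5 in unstarved RA, and 62.8 and 65.9 in starved RA. It rose without overlap in both lines, and starved WT stood above every other group. The changes were 1.27 in WT (SE 0.048, limma BH-adjusted p = 1.36e-13) and 0.60 in RA (SE 0.048, limma BH-adjusted p = 7.42e-09). Its interaction of -0.67 was the lowest of the 43 (SE 0.067, limma BH-adjusted p = 4.3e-07). It was the only one of the 43 with a 2-fold change in any comparison. On GRCm38 it lies on chromosome X at 48256862 to 48282453, and 11.5% of its exon bases overlap the noncoding gene 9530027J09Rik on the opposite strand, which cannot be told apart since the handling of strand is not stated.

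Utp20 had 122 and 121 CPM in unstarved WT, 159 and 149.6 in starved WT, 122 and 115 in unstarved RA, and 125 and 134 in starved RA. It rose by 0.34 in WT and by 0.13 in RA, and this second call was lost without RA normal replicate 2 or RA starved replicate 2 (adjusted p up to 0.213). Wdr43 had 162 and 161 CPM in unstarved WT, 175 and 182 in starved WT, 171 and 168 in unstarved RA, and 163 and 162 in starved RA. It rose by 0.14 in WT (SE 0.037, limma BH-adjusted p = 0.00212), was not called in RA (-0.06), and had an interaction of -0.20. Dcaf13 was the only processome gene here that fell, with 65.7 and 66.8 CPM in unstarved WT, 60.2 and 59 in starved WT, 71.4 and 73.2 in unstarved RA, and 64.5 and 63.8 in starved RA. Its changes of -0.15 in WT and -0.17 in RA were nearly the same by value, and its interaction of -0.02 was not called. It was higher in RA under starvation (0.10, limma BH-adjusted p = 0.0448), a call lost without any 1 of 6 libraries (adjusted p up to 0.165).

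The other processome genes lay between these. Heatr1, a large scaffold also needed for RNA polymerase I transcription, rose by 0.83 in WT (SE 0.041, limma BH-adjusted p = 6.5e-12) and by 0.31 in RA (SE 0.041, limma BH-adjusted p = 3.75e-06). In WT, Nop14 rose by 0.61, Utp15 by 0.59 and Rrp12 by 0.56, against 0.20, 0.16 and 0.27 in RA. Smaller rises in WT were those of Nol6 (0.46), Nat10 (0.42), an RNA acetyltransferase, Wdr75 (0.39) and Rrp9 (0.38). In RA, the rise was 0.28 for Nat10, 0.20 for Nol6 and 0.12 for Wdr75, and Rrp9 was not called (0.01). Nat10 was the only gene that rose in WT and whose interaction was not called (-0.14, SE 0.057, limma BH-adjusted p = 0.0554). Without 1 library, the interaction was lost for Nol6 (WT starved replicate 1 or RA starved replicate 1, adjusted p up to 0.0695) and Utp20 (the same libraries, up to 0.0879), and the rise in RA for Nol6 (RA starved replicate 2, 0.0684) and Wdr75 (1 of 3 libraries, up to 0.111).

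Of the 4 late 40S factors, 2 rose and 1 fell in WT, and 1 rose and 2 fell in RA. Bysl, an essential factor of late 40S maturation, was the only one of the 43 with an interaction above 0 that was called. It had 99.6 and 103 CPM in unstarved WT, 54.3 and 55.8 in starved WT, 109 and 114 in unstarved RA, and 72.7 and 72 in starved RA. Both lines fell without overlap, by 0.87 in WT (SE 0.043, limma BH-adjusted p = 5.87e-12) and by 0.61 in RA (SE 0.043, limma BH-adjusted p = 1.36e-09). Under starvation RA stood 1.31-fold above WT, and the interaction was 0.26 (SE 0.061, limma BH-adjusted p = 0.00208). Bysl lies on chromosome 17 at 47599331 to 47611492 of GRCm38, and 9.37% of its exon bases overlap Ccnd3 on the opposite strand.

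Nob1, the nuclease that makes the 3′ end of the 18S rRNA, had 97.9 and 98.3 CPM in unstarved WT, 124 and 127 in starved WT, 93.2 and 101 in unstarved RA, and 97.2 and 97.5 in starved RA. Starved WT stood apart from the other 3 groups, with a rise of 0.35 in WT (SE 0.043, limma BH-adjusted p = 9.11e-07), 0.01 in RA and an interaction of -0.34. Tsr1 had 114 and 118 CPM in unstarved WT, 114 and 113 in starved WT, 127 and 119 in unstarved RA, and 109 and 107 in starved RA. Its change was -0.03 in WT and -0.19 in RA (limma BH-adjusted p = 0.000668). Its interaction of -0.16 was lost with edgeR and without any 1 of 5 libraries (adjusted p up to 0.132). Of its exon bases, 32.3% overlap Srr on the opposite strand, so its value may hold reads of that gene. Ltv1, which leaves the 40S late in assembly, rose by 0.38 in WT and by 0.20 in RA, and its interaction of -0.18 was lost without any 1 of 3 libraries (adjusted p up to 0.126).

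Among the 10 genes of 60S assembly, 6 rose and 3 fell in WT, while 1 rose and 6 fell in RA. The interaction was called lower for 8. Pes1, Bop1 and Wdr12 form 1 complex, the PeBoW complex, needed to process the precursor of the large subunit rRNA, and their genes did not move together. Pes1 had 127 and 125 CPM in unstarved WT, 192 and 186 in starved WT, 132 and 135 in unstarved RA, and 137 and 130.4 in starved RA. It rose by 0.58 in WT (SE 0.040, limma BH-adjusted p = 5.38e-10), was at 0.0044 in RA, and its interaction was -0.58 (SE 0.057, limma BH-adjusted p = 3.21e-07). Wdr12 likewise rose by 0.58 in WT and stood at 0.02 in RA, with an interaction of -0.55.

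Bop1 had 118 and 121 CPM in unstarved WT, 93 and 94.1 in starved WT, 118 and 133 in unstarved RA, and 101 and 91.6 in starved RA. It fell in both lines, by 0.34 in WT (SE 0.054, limma BH-adjusted p = 1.74e-05) and by 0.38 in RA (SE 0.054, limma BH-adjusted p = 7.35e-06), and its interaction of -0.04 was not called. Within the complex, 2 genes rose in WT and the third fell there. Near-identical copies were found for Pes1 in 2 other genes (longest match 1771 bases of a transcript of 2923). Wdr12, with a transcript of 10012 bases, shared near-identical stretches with 2 other genes. They were 1272 bases in the pseudogene Gm4879 and 1377 in the protein-coding gene Vmn1r88.

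Nop2, an rRNA methyltransferase, had 186 and 178 CPM in unstarved WT, 223 and 229 in starved WT, 176 and 183 in unstarved RA, and 176 and 175 in starved RA. Only starved WT stood apart, with a rise of 0.31 (SE 0.038, limma BH-adjusted p = 1.17e-06), against -0.03 in RA. Gnl3 (nucleostemin), a GTPase of the nucleolus, had 171 and 167 CPM in unstarved WT, 211 and 233 in starved WT, 166 and 166 in unstarved RA, and 191 and 189 in starved RA. It was the 1 gene of this group that rose in both lines, by 0.39 in WT and by 0.19 in RA, and its interaction of -0.19 was lost without WT normal replicate 2 or WT starved replicate 2 (adjusted p up to 0.0841).

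All of the remaining 60S genes but Ebna1bp2 were called lower in starved RA than in starved WT. Rrs1, which takes the 5S particle into the subunit, and Nip7 moved oppositely, Rrs1 by 0.28 in WT and -0.18 in RA and Nip7 by 0.17 and -0.25, with interactions of -0.46 and -0.42. Nop16 and Ebna1bp2 fell in both lines, Nop16 by 0.27 and 0.49 and Ebna1bp2 by 0.10 and 0.30 for WT and RA. The fall of Ebna1bp2 in WT was lost without any 1 of 5 libraries (log2 -0.114 to -0.051). The difference of Nop16 between the starved lines, -0.12, was lost without any 1 of 3 (log2 -0.142 to -0.095), with edgeR and with scaling to total reads. Rrp1b was not called in WT (-0.10) and fell by 0.22 in RA.

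**Figure D3:**
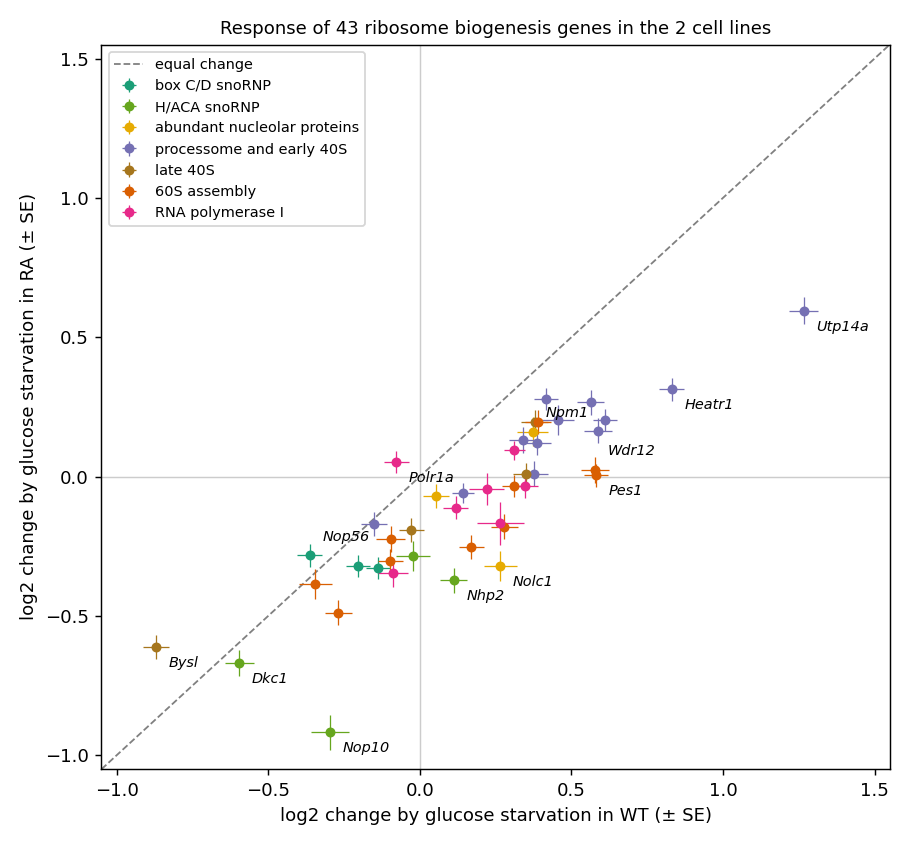
Log2 change by starvation in RA (vertical) against that in WT (horizontal) for the 43 genes, with standard errors and colored by role; the dashed line marks equal change. All but 3 genes lie below the line, and Bysl, Nop56 and Polr1a lie above it.

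For RNA polymerase I, 5 of 7 genes rose in WT and 0 fell, while 1 rose and 2 fell in RA. Under starvation 6 of the 7 were lower in RA, and the remaining one, Polr1a, was higher. Mybbp1a, a nucleolar partner of the polymerase and of the tumor suppressor p53, had 472 and 478 CPM in unstarved WT, 591 and 589 in starved WT, 501 and 505 in unstarved RA, and 535 and 538 in starved RA. It rose by 0.31 in WT (SE 0.035, limma BH-adjusted p = 3.76e-07) and by 0.09 in RA. The second call was lost without any 1 of 3 libraries (adjusted p up to 0.117).

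Polr1a encodes the largest subunit, which carries the catalytic center. It had 134 and 129 CPM in unstarved WT, 121 and 128 in starved WT, 142 and 139 in unstarved RA, and 146 and 146 in starved RA. No change by starvation was called (-0.08 in WT and 0.05 in RA), and RA was higher under starvation by 0.22 (SE 0.041, limma BH-adjusted p = 0.000154). Polr1b, which encodes the other large catalytic subunit, had 52.7 and 52.5 CPM in unstarved WT, 50 and 48.8 in starved WT, 49.9 and 53.2 in unstarved RA, and 39.8 and 40.8 in starved RA. It fell by 0.35 in RA (SE 0.049, limma BH-adjusted p = 8.66e-06), was not called in WT (-0.09), and had an interaction of -0.26. The genes of the 2 catalytic subunits thus differed in opposite directions between the starved lines, 0.22 for Polr1a and -0.29 for Polr1b.

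Polr1e, a subunit of the initiation and elongation module, had 29.6 and 29.4 CPM in unstarved WT, 35.6 and 35.8 in starved WT, 27 and 33.4 in unstarved RA, and 27.7 and 25.6 in starved RA. Its interaction of -0.43 was the lowest of this group, with the widest error of the set (SE 0.110, limma BH-adjusted p = 0.0035). Rrn3, the factor that links the polymerase to its promoter and is itself controlled by nutrients, rose by 0.35 in WT (SE 0.043, limma BH-adjusted p = 1.27e-06), stood at -0.03 in RA, and had an interaction of -0.38. Ubtf, which binds along the ribosomal DNA, rose in WT (0.12) and fell in RA (-0.11). The calls of Ubtf in each line were lost without either of 2 libraries (log2 0.093 to 0.103 in WT and -0.086 to -0.073 in RA), while its interaction of -0.23 was kept in each omission. Its rise in WT was also lost with edgeR and with scaling to total reads. Its fall in RA was also lost with quantile normalization and with no filter. Polr1c, a subunit shared with RNA polymerase III, rose by 0.22 in WT and stood at -0.04 in RA. Its interaction of -0.27 was lost without any 1 of 3 libraries (log2 -0.229 to -0.186). Its difference between the starved lines, -0.14, was lost without either of 2 (log2 -0.109 to -0.103). That difference was also lost with edgeR, with quantile normalization, with scaling to total reads and with no filter.

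**Figure D4:**
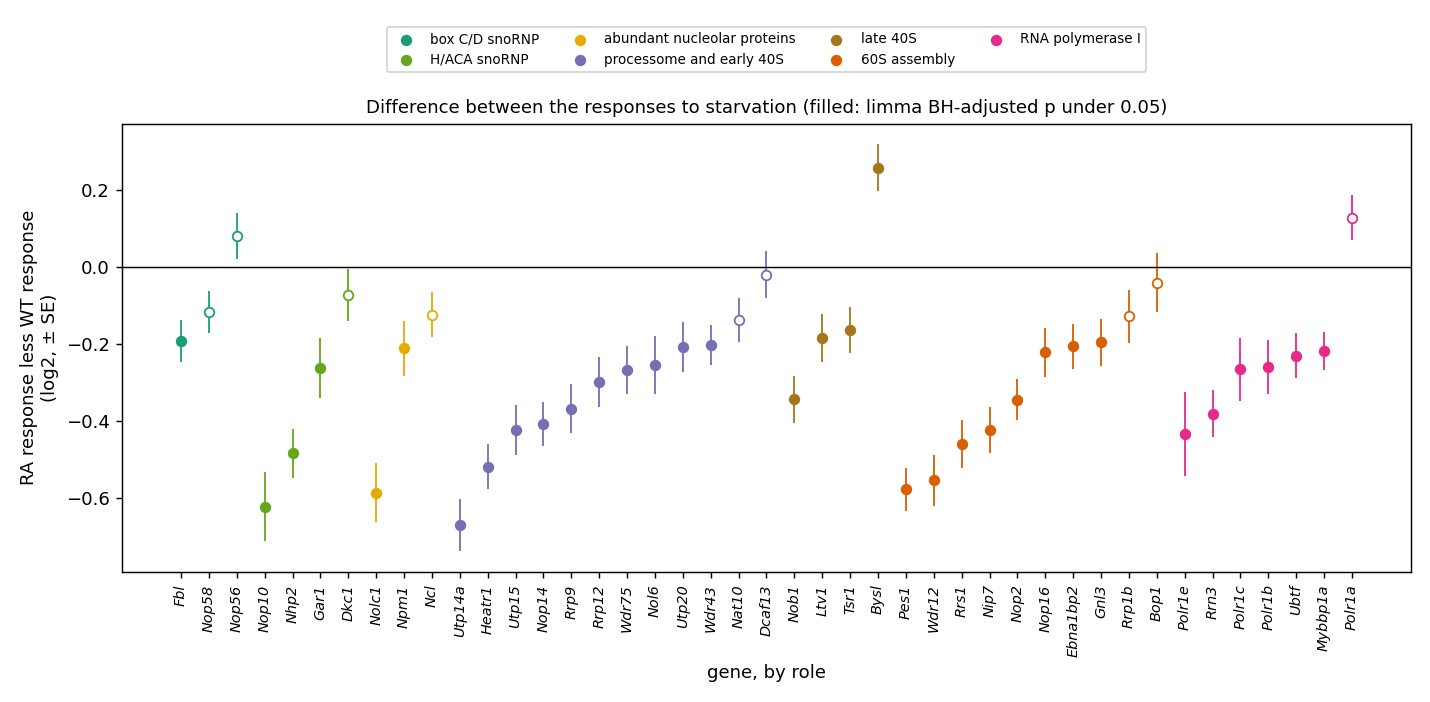
Response to starvation in RA less that in WT (log2, vertical axis, with standard errors) for each of the 43 genes, ordered by role; filled points have a limma BH-adjusted p under 0.05. Of the 34 filled points, 33 lie below 0 and Bysl lies above.

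In normal medium 4 genes were called between the lines, all higher in RA: Npm1 (0.17), Fbl (0.17), Nip7 (0.14) and Ncl (0.14), with limma BH-adjusted p from 0.0124 to 0.0461. None of these was kept in every omission of a library. The call of Fbl was lost without WT normal replicate 1 (adjusted p = 0.146), that of Npm1 without any 1 of 5 libraries (up to 0.23), that of Ncl without any 1 of 6 (up to 0.235) and that of Nip7 without any 1 of 7 (up to 0.191). With quantile normalization and with scaling to total reads, 0 of the 43 were called.

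The promoter sequences of 36 of the 43 genes were found in the RefSeq table for GRCm38.p6, each running from 250 bases before to 50 after the annotated start. They were searched for CACGTG, the E-box letters that the MYC-MAX dimer binds and that also form the center of the CLEAR motif of TFEB. The motif reads the same on both strands. It was found in 8 of the 36 (22.2%): Tsr1, Wdr43, Nop2, Mybbp1a, Utp20, Rrn3, Ltv1 and Pes1. It stood in the promoters of 8.09% of all genes in the table and of 11.5% of those tested here. Of the 9 matches, 3 lay before the start and 6 after it. Among the 8 genes, 7 rose in WT and 0 fell (median log2 change 0.33), and among the 28 without the letters 16 rose and 7 fell (median 0.14). The median interaction was -0.21 with the letters and -0.26 without. A match is only a match of letters, and no binding was measured in these libraries.

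The sequences below are those of the 4 genes with the lowest changes among the 8, shown so that the setting of the motif can be read. Capitals mark CACGTG, and each runs from 5′ to 3′ on the strand of its gene, which is plus for all 4. For Tsr1 (GRCm38.p6, chr11:74898094-74898119) the motif starts 24 bases after the annotated start, for Wdr43 (chr17:71616222-71616247) 17 bases after it, and for Mybbp1a (chr11:72441357-72441376) 40 bases after it. For Nop2 (chr6:125131783-125131882) the 100 bases before the start are shown, with the motif beginning at -60.
Tsr1: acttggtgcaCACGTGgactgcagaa
Wdr43: cccgggcgaaCACGTGgctgccgcgg
Nop2: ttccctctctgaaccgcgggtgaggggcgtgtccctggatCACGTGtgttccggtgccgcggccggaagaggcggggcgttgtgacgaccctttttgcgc
Mybbp1a: cttctgagccCACGTGtttg

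Myc itself, the transcription factor known to drive ribosome biogenesis, was higher in RA in both media and rose upon starvation in both lines. It had 106 and 107 CPM in unstarved WT, 188 and 199.6 in starved WT, 134 and 142 in unstarved RA, and 271 and 269 in starved RA. The changes were 0.86 in WT and 0.96 in RA, RA against WT was 0.37 in normal medium (SE 0.041, limma BH-adjusted p = 1.15e-05) and 0.48 under starvation (SE 0.041, limma BH-adjusted p = 2.97e-08), and the interaction of 0.11 was not called. Starved RA held the highest Myc level.

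Of the other genes of ribosome biogenesis, 142 were tested. In WT 79 rose and 40 fell, in RA 48 rose and 49 fell, and the interaction was called lower for 77 and higher for 10. In WT 83.8% of the 142 were called, beside 78.6% of all tested genes, and for the interaction 61.3% beside 50.6%. In RA the share was that of the background, 68.3% beside 68.7%. Among 41 further processome genes, 26 rose and 8 fell in WT, from Rrp7a (-0.54) to the helicase Dhx37 (1.09), the partner that Utp14a activates. Dhx37 had 34 and 33.1 CPM in unstarved WT, 73.9 and 71 in starved WT, 35.2 and 35 in unstarved RA, and 45.5 and 43.2 in starved RA, and its interaction was -0.76 (SE 0.072, limma BH-adjusted p = 2.05e-07). Among 53 further 60S factors, 35 rose and 11 fell in WT, from Rrp8 (-0.61) to Tma16 (1.32), and the interaction was called lower for 33 and higher for 2. Rrp8, which silences ribosomal DNA when energy is short, was among those higher, at 0.39 (SE 0.066, limma BH-adjusted p = 0.000109). Of 5 further late 40S factors tested, 3 rose and 1 fell in WT, from Tsr2 (-0.26) to Tsr3 (0.63).

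The exosome and trimming genes, which digest rRNA spacers, were more often lower, with 4 of 17 higher and 9 lower in WT and 3 higher and 10 lower in RA. Exosc6 fell by 1.09 in WT and by 1.19 in RA, while Exosc5, another subunit of the same ring, rose by 1.25 in WT and by 0.48 in RA. Of 12 genes that assemble snoRNPs, the pathway in which Pontin works with the R2TP complex, 4 rose and 4 fell in WT, from Rpap3 (-0.65) to Naf1 (0.65), and in RA 3 rose and 5 fell. The interaction was called for 6, of which 3 were higher and 3 lower. The 12 include Ruvbl1 itself, whose row cannot be split into added and endogenous copies. Of the 14 other subunits and partners of RNA polymerase I, 7 rose and 7 fell in WT, from the shared subunit Polr2l (-0.69) to Polr1f (0.69), and the interaction was called lower for 7 and higher for 3.

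Of the subunits particular to RNA polymerase II and RNA polymerase III, 85.7% and 90.9% were called in WT, beside 78.6% of all tested genes. In RA it was 71.4% and 81.8%, beside 68.7%. Of 7 for RNA polymerase II, 4 rose and 2 fell in WT, and the interaction was called lower for 5. Its largest subunit gene, Polr2a, rose by 0.95 in WT and by 0.12 in RA, with an interaction of -0.83. The rise in RA was lost without RA normal replicate 2 or RA starved replicate 2 (adjusted p up to 0.0994). Polr2d fell by 0.50 in WT and by 0.79 in RA. Of 11 for RNA polymerase III, 8 rose and 2 fell in WT, from Polr3g (-1.33) to Polr3e (0.91), and 7 rose and 2 fell in RA. Of 7 genes of ribosomal DNA silencing and MYC, 3 rose and 2 fell in WT. Mycn, the lowest of these (-1.16 in WT), was at or under 2.09 CPM in every library.

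The messenger RNAs of the ribosome's own proteins showed the pattern more evenly. Of 79 cytosolic ribosomal protein genes, 78 rose and 0 fell in WT (median 0.62), and 53 rose and 4 fell in RA (median 0.19). RA against WT was called higher for 43 in normal medium (median 0.15) and lower for 73 under starvation (median -0.29). The interaction was called lower for 78 (median -0.45). The 43 assembly genes, with a median interaction of -0.25, were more spread in WT, from -0.87 for Bysl to 1.27 for Utp14a.

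**Figure D5:**
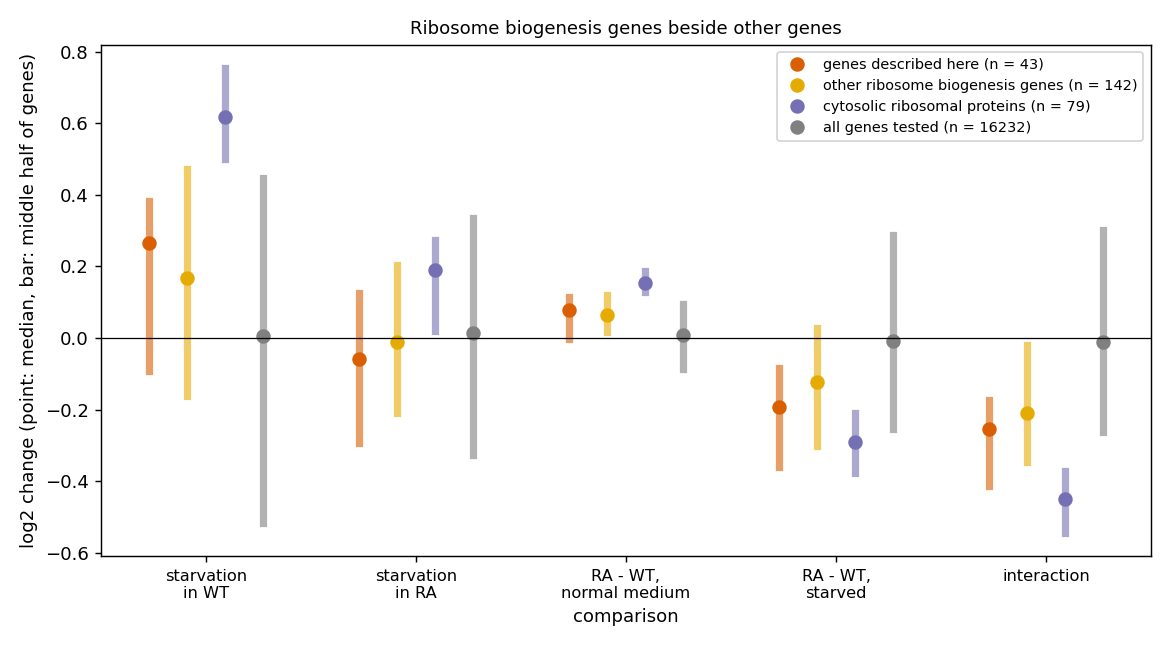
Log2 change (vertical axis) in the 5 comparisons (horizontal axis) for the 43 genes described here, 142 other ribosome biogenesis genes, 79 cytosolic ribosomal protein genes and all 16232 genes tested; points are medians and bars run from the lower to the upper quartile. Ribosomal protein genes have the highest median in WT (0.62) and the lowest interaction (-0.45).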

How the data were processed

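The libraries were prepared by the authors with a polyA kit (TruSeq RNA v2), sequenced from both ends (Illumina) and aligned with mm9; the labels' processing notes name TopHat2 2.0.9, bedtools and edgeR. The counter, annotation, strand handling and treatment of multiply mapped reads are not given in the sources used here. The deposited values are a signal, read counts (CPM) relative to a library size that the authors scaled, with column sums of 965845 to 1029723. CPM of the plain library size had been planned, and the same test was used. Whole reads could be recovered for 100% of nonzero values (tolerance 0.1 reads).

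Genes with at least 1 CPM in 2 libraries were tested with limma 3.58.1 (R 4.3.3) on log2(CPM + 1), over all 8 libraries with a mean per group and eBayes with a trend; the 2-sided p-values of each of 5 contrasts were adjusted over 16232 genes by Benjamini-Hochberg (BH). Members and lists were chosen with earlier results of these data known. Values in every library are given for, per role group, the 2 members with the highest mean, those with the highest and lowest interaction, and the lowest change in WT, besides Ruvbl1 and Myc. Of the other pathway lists, the genes with the lowest and highest change in WT are named with their changes, and Dhx37, chosen after its values were seen, with every library. Replicates differed beyond sampling noise in every group. The chi-square per degree of freedom was 3.48 in unstarved WT, 6.11 in starved WT, 6.6 in unstarved RA and 16.7 in starved RA. The fit took 1 spread per gene over all groups. Alternatives changed the pseudocount, filter, scaling, threshold, trend, samples and tool (edgeR 4.0.16 and DESeq2 1.42.0 on recovered reads). Counts were also simulated with 200 changed genes. Every gene and group was given the same fixed spread between replicates, while in the data the spread differed between groups. Of those changed by 0.5 (log2) with a mean over 10 CPM, limma recovered 100% for starvation in WT and 86.4% for the interaction. The only sizes simulated were 0.5 and 1, so these rates do not cover smaller changes, such as the set's median interaction of -0.25. Far more genes were called in the data, 12756 for starvation in WT alone, so the rates may not carry over to them. Exon overlaps and loci are from GENCODE M21 on GRCm38, and promoters from RefSeq GRCm38.p6, neither of which is the build of the files, so they serve for names, overlaps and sequence only. Near-identical copies were sought with blastn 2.17.0 (at least 95% identity over 300 bases, a length set after shorter repeat-like matches were seen). Riok2 was not analysed here.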

Additional observations from a re-analysis of the deposited data

Results flagged for a closer look

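The response to glucose starvation differed between RA and WT for 34 of the 43 genes, by the limma interaction (BH-adjusted p under 0.05). Groups of 2 libraries are too small to test for a library that stands apart. The values are RA response less WT response on the log2 scale. Among the processome genes they were Utp14a -0.67, Heatr1 -0.52, Utp15 -0.42, Nop14 -0.41, Rrp9 -0.37, Rrp12 -0.30, Wdr75 -0.27, Nol6 -0.25, Utp20 -0.21 and Wdr43 -0.20. Among the 60S factors they were Pes1 -0.58, Wdr12 -0.55, Rrs1 -0.46, Nip7 -0.42, Nop2 -0.34, Nop16 -0.22, Ebna1bp2 -0.20 and Gnl3 -0.19. For RNA polymerase I they were Polr1e -0.43, Rrn3 -0.38, Polr1c -0.27, Polr1b -0.26, Ubtf -0.23 and Mybbp1a -0.22. The snoRNP and nucleolar protein genes were Nop10 -0.62, Nolc1 -0.59, Nhp2 -0.48, Gar1 -0.26, Npm1 -0.21 and Fbl -0.19. The late 40S factors were Nob1 -0.34, Ltv1 -0.18 and Tsr1 -0.16, and Bysl, at 0.26, was the 1 gene whose value was above 0.
The call was lost with scaling to total reads for Ebna1bp2, Fbl, Gnl3, Ltv1, Nol6, Nop16, Npm1, Polr1c, Tsr1 and Utp20, with quantile normalization for Fbl, Ltv1, Nol6, Npm1 and Tsr1, with no filter on low values for Gar1, Gnl3, Nol6, Npm1, Polr1c, Tsr1 and Utp20, without the trend for these same genes and for Ebna1bp2, Fbl and Ltv1, and with edgeR for Tsr1.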

How the results depend on the processing

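No called change of a gene named here turned its direction under any alternative. In each comparison, some of the 43 genes not called here were called under an alternative, never with the opposite sign. Except with a 2-fold change also required, counts of called genes stayed within 1.5 times those reported in both starvation responses and between starved lines. This held for the interaction too, except for genes called higher, whose counts are given below. Requiring a 2-fold change left 1 gene (higher) for starvation in WT and 0 in every other comparison. The 4 genes called higher in RA in normal medium became 1 with no filter, 2 with only the groups compared, 7 with the replicate block, and 0 with quantile normalization, with scaling to total reads, without the trend and at an adjusted p under 0.01; leaving out 1 library gave 0 to 5. Deviations from the group mean correlated weakly between same-numbered libraries (-0.00764 to 0.157), and whether the libraries were paired was not tested. The replicate block moved no other count of the 43 genes by over 1.5 times. Over all genes it raised the calls in normal medium from 1563 to 2059. The median change in WT, 0.27, was 0.18 with quantile normalization and 0.19 with total reads, and leaving out 1 library gave 0.21 to 0.27; in RA the range was -0.073 to -0.056. The median of RA against WT in normal medium was 0.038 with quantile normalization and 0.029 with total reads (1 library left out: 0.058 to 0.080). Under starvation it was -0.21 with median-ratio scaling and with DESeq2, -0.17 with quantile normalization and total reads, and -0.18 with edgeR (1 library left out: -0.22 to -0.19). The median interaction was -0.19 with quantile normalization, -0.18 with total reads and -0.23 with edgeR (1 library left out: -0.26 to -0.22), and genes with a higher interaction numbered 3, 3 and 2 (1 library left out: 1 to 2). The cause was not tested. Of all genes called in normal medium, 69.3% were higher in RA, against 40.5% with total reads and 52.6% with quantile normalization. Of the 43 genes, 8 lost the interaction call without some library, 3 the call in WT, 6 that in RA and 6 that between starved lines. The lowest mean among the 43 genes was 30.5 CPM (Polr1e), and precision rests on 2 libraries a group.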
